A study of Mus musculus with 2 samples.

Results

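Heat shock proteins and their cochaperones were examined in the hippocampus of aged mice that had or had not received tomatidine, the steroidal alkaloid that remains when the sugars are removed from tomatine of tomatoes. The members were chosen by symbol: all genes named Hspa, Hspb, Dnaja, Dnajb or Dnajc with a number, the Hsp90 genes, Hspd1, Hspe1, Hsph1 and the transcription factor gene Hsf1. This gave 73 of the 19059 genes in the files, namely 13 Hspa, 8 Hspb, 4 Dnaja, 13 Dnajb, 28 Dnajc, 3 Hsp90 and 4 other genes. Of these, 67 had at least 100 unique molecular identifiers (UMIs, tags that mark single molecules) over both libraries. The 6 others were Dnajb7, Dnajb8, Dnajc5b, Dnajc5g, Hspb7 and Hspb9, and Dnajb8 and Dnajc5g had 0 UMIs, below the 3 counts that a count of 0 allows per library.

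Single-cell libraries were made from fixed cells of flash-frozen hippocampus with a probe-based kit. There were 2 libraries, each a pool of 4 C57BL/6 mice. Mice of both groups were 21 months old at the start. The treated mice received tomatidine at 0.05% of the diet for 3 months, and the control mice received chow without it over the same time. The study used mice of both sexes, and the sources used here do not give the sexes in each pool. With 1 library per group there was no replicate check, so neither tests nor p-values could be given, and a difference between the groups cannot be told apart from one between the pools or the making of the libraries.

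Chaperones of the HSP70 family (Hspa genes) bind unfolded stretches of other proteins and release them in a cycle driven by ATP. J-domain cochaperones (Dnaj genes) bring clients to HSP70 and start that cycle, HSP90 acts later on clients such as kinases and steroid receptors, HSP60 and HSP10 fold proteins inside mitochondria, and small heat shock proteins (Hspb genes) hold unfolded proteins in a state from which they can be refolded. The transcription factor HSF1 raises the stress-induced members when unfolded proteins accumulate, and a separate response serves the endoplasmic reticulum. Neurons rely on several constitutive members, among them the synaptic vesicle cochaperone gene Dnajc5 and the clathrin-uncoating cochaperone gene Dnajc6.

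Short stretches of the promoters of the stress-induced, mitochondrial and endoplasmic reticulum members carry the binding motifs of these responses and are shown for the genes whose levels are described at length. They were taken from RefSeq (GRCm38.p6, 250 bases before to 50 after a transcription start), which held promoters of 58 of the 73 members but none for Hspa8 or Hsp90aa1. The heat shock element was searched as GAANNTTC and TTCNNGAA (2 units) and as GAANNTTCNNGAA and TTCNNGAANNTTC (3 units), and matches may overlap. The forms with 2 units were found in promoters of 6 of the 7 stress-induced genes with an entry (Dnaja1, Dnajb4, Hspa1a, Hspa1b, Hspb1 and Hsph1) and of 16 of the 58 members, beside 17.0% of all 27025 genes. The forms with 3 units were found in 4 of 58 members (Dnajb6, Hspd1, Hspe1 and Hsph1), beside 0.662% of all genes. Hspa1a and Hspa1b, neighbours on chromosome 17 that encode the inducible HSP70, had the same 48 bases at the same distance from their starts (chr17:34972233-34972280 and chr17:34959315-34959362, minus strand). In Hspb1, the gene of the small heat shock protein HSP27, there were 2 matches (chr5:135887782-135887849, plus strand). Hspd1 and Hspe1, the HSP60 and HSP10 genes, are read in opposite directions. The same interval (chr1:55088054-55088081) lay before the RefSeq start of each, and it is given on the minus strand for Hspd1 and on the plus strand for Hspe1. In the mm10 gene positions Hspd1 spans 55077835 to 55088243, so the interval lies within that span, and Hspe1 begins at 55088132. Hspa1a (mm10 chromosome 17, 34969190 to 34972156), Hspa1b (chromosome 17, 34956436 to 34959238) and Hspb1 (chromosome 5, 135887919 to 135889563) lie just downstream of their stretches. Capitals mark the units of the element.
Hspa1a: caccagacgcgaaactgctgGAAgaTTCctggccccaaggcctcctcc
Hspa1b: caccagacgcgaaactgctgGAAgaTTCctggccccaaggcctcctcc
Hspb1: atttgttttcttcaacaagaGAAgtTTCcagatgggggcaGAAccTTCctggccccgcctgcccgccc
Hspd1: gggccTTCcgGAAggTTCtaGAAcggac
Hspe1: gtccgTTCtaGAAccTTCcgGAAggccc

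The endoplasmic reticulum stress element was searched as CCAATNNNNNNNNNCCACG and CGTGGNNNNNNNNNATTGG. Of the 11 endoplasmic reticulum members with a promoter entry it was found in 3, Hspa5, Dnajc3 and Hsp90b1, and in 37 of all 27025 genes (0.137%). Hspa5 encodes BiP, the HSP70 of the endoplasmic reticulum, Dnajc3 its cochaperone P58IPK and Hsp90b1 the HSP90 of that compartment, GRP94. The matches in Hspa5 (chr2:34772020-34772048) and Dnajc3 (chr14:118937807-118937865), both on the plus strand, are shown with the conserved ends of the element in capitals. That of Hspa5 lies before its RefSeq start but within the mm10 span of the gene, which begins at 34771970. A match is a stretch of letters and was not examined for binding.
Hspa5: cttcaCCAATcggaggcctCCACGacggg
Dnajc3: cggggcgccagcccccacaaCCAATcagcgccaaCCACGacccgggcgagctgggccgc

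The control library held 15912 cells with 279525565 UMIs and the tomatidine library 15185 cells with 259059908 UMIs. After filtering, 15115 and 14502 cells remained, with a median of 7077 and 7408 UMIs per cell, and 292 cell barcodes occurred in both libraries. Cells were clustered without the members, and clusters were named from marker genes, so that a class name stands for cells like that type. The 7 main classes were excitatory neurons (4891 control and 4430 tomatidine cells), interneurons (561 and 523), astrocytes (1845 and 2144), oligodendrocytes (3067 and 2381), oligodendrocyte precursors (382 and 352), microglia (871 and 781) and endothelial cells (299 and 415). Thalamic or other subcortical neurons (589 and 943 cells) and choroid plexus cells (356 and 33) were also found, so the libraries held unequal numbers of cells of types from outside the hippocampus proper. Levels are given as the UMIs of a gene per 1000000 UMIs of the class in that library (CPM), with the control library first. Each gene has its own probes, so levels are compared between classes and libraries but not between genes.

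Most members were found in all main classes, and among these 7 interneurons were most often the class with the highest level. The summed level of the 9 stress-induced members was 1764 and 1668 CPM in excitatory neurons and 2114 and 1980 CPM in interneurons. In astrocytes it was 1004 and 1001 CPM and in microglia 934 and 916 CPM. Oligodendrocytes lay between, at 1536 and 1437 CPM. In excitatory neurons most of the sum came from Hspa8 (704 and 652 CPM) and Hsp90aa1 (437 and 422 CPM). Hspa1a and Hspa1b together had 34.0 and 28.9 CPM there, so the sums do not rank the classes by stress induction. Of 61 members with enough UMIs to rank the 7 main classes, 54 had the same highest class in both libraries (88.5%, beside 84.0% of all genes ranked). Interneurons were the highest class for 21 members (34.4%, beside 16.6% of genes) and excitatory neurons for 10 (16.4%, beside 16.0%). The 21 included Hspa8 and Hspa4 of the HSP70 system, Hsp90aa1, the mitochondrial genes Hspa9, Hspd1 and Hspe1, the synaptic genes Dnajc5 and Dnajc6, and Dnajc12. Microglia were highest for 8 members (13.1%, beside 12.1% of genes), a share near that of all genes. Among the 8 were Hspa5, Hsp90b1 and Dnajb11 of the endoplasmic reticulum. Hspa5 stood at 188 and 164 CPM in microglia against 115 and 105 CPM in excitatory neurons, and Hsp90b1 at 312 and 320 CPM against 163 and 177 CPM. Choroid plexus cells, which are not among the 7, stood above microglia for both, with 371 and 368 CPM of Hspa5 and 352 and 340 CPM of Hsp90b1. Over 12 classes, 33 of 50 members had the same highest class in both libraries, and the most frequent was ependymal cells, with 10 of the 50 (beside 5.33% of genes) from only 35 and 14 cells, against 4 for interneurons (beside 7.81% of genes). Classes of a library share its making and are not replicates, so these counts are a description.

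**Figure D1:**
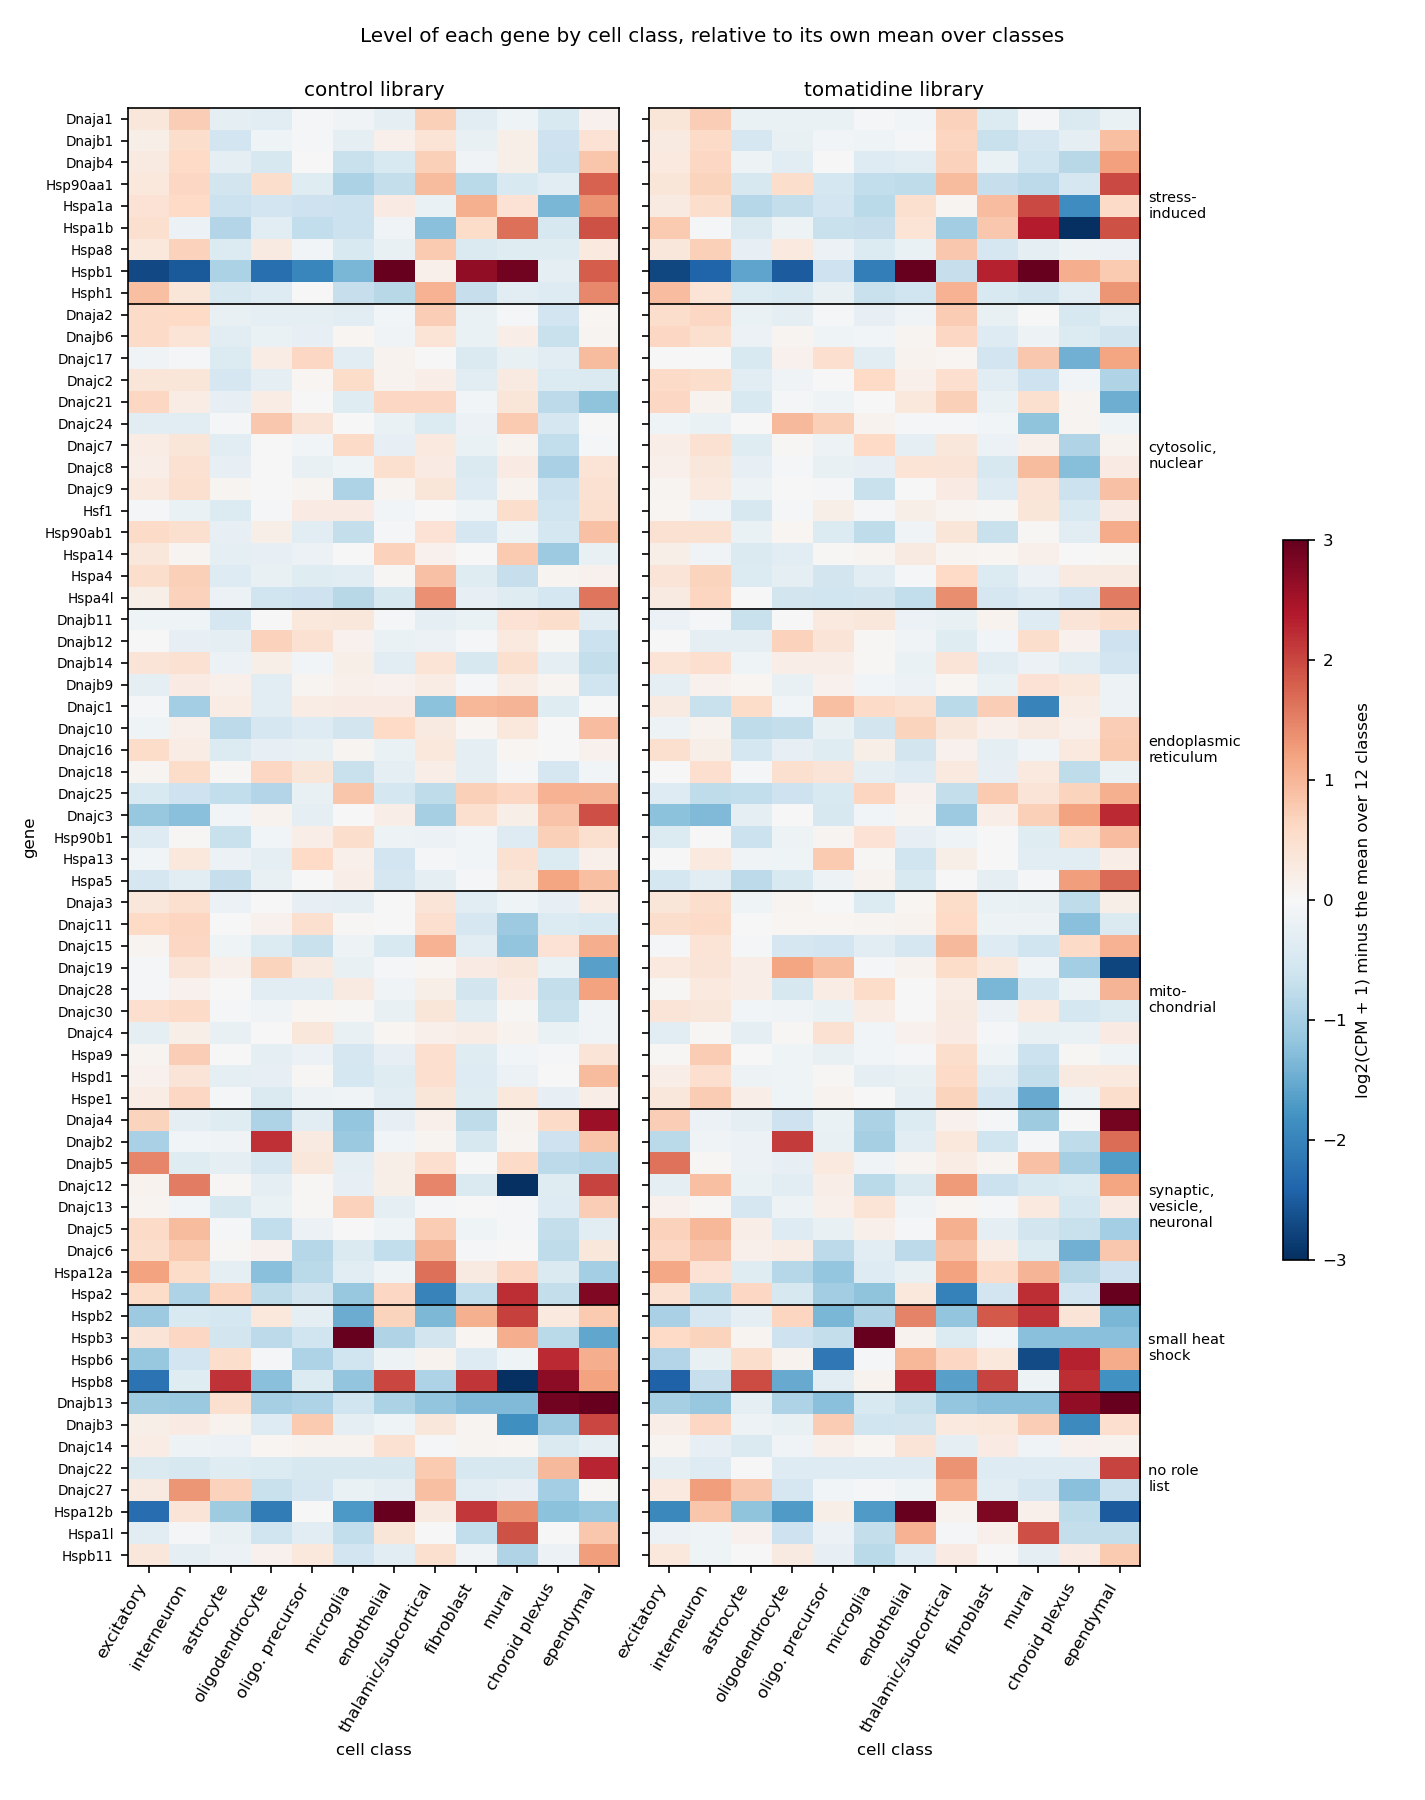
Level of the 67 members with at least 100 UMIs in 12 cell classes, for the control library (left) and the tomatidine library (right). Colour gives log2(CPM + 1) minus the gene's mean over the classes, and rows are grouped by role. Of 50 members tested 33 have the same highest class in both panels, and both show red blocks for Hspb1 and Hspa12b in endothelial cells and Dnajb13 in ependymal cells.

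Some members had a much higher level in 1 class than in the next. In 7 of 50 members tested over 12 classes, the highest class had at least 2 times the level of the next class in both libraries, which 19.6% of 10407 genes did, so that such a pattern was no more common in the members than in all genes. Hspa12b, an atypical HSP70 gene known from vessels, stood at 261 and 298 CPM in endothelial cells and at 27.1 and 38.4 CPM in the next class, fibroblasts. Hspb1 stood at 234 and 274 CPM in endothelial cells and at 0.541 and 0.561 CPM in excitatory neurons. Mural cells, which numbered only 38 and 39, were next at 73.6 and 131 CPM. The endothelial class itself held mural markers, which summed to 8000 and 10227 CPM. At least 1 Hspb1 UMI was seen in 57.5% of control endothelial cells (exact binomial 95% interval 51.7 to 63.2, median depth 6319 UMIs) and in 53.7% with tomatidine (48.8 to 58.6, median 4605 UMIs). In control excitatory neurons, at a median of 16409 UMIs, the share was 1.08% (0.813 to 1.42). With each cell thinned to 1500 UMIs, which left out 43 and 71 shallower endothelial cells, the shares were 26.7% and 28.0% in endothelial cells and 0.112% in control excitatory neurons. Hspb3, a small heat shock gene known from muscle, was highest in microglia (35.2 and 39.3 CPM, 110 and 106 UMIs). The next class stood at 5.25 CPM in the control library (mural cells, seen in 1 of 38 cells) and 2.79 CPM in the tomatidine library (interneurons). Dnajb13, a J-domain gene of the axoneme of cilia, stood at 169 and 253 CPM in ependymal cells, which bear cilia, against 17.7 and 14.1 CPM in choroid plexus cells. Dnaja4, a HSP70 cochaperone gene, stood at 177 and 176 CPM and Dnajc3 at 411 and 531 CPM in the same ependymal cells, which numbered 35 and 14. Neither is limited to these cells: Dnaja4 had 47.0 and 39.2 CPM in excitatory neurons, and Dnajc3 had 196 and 260 CPM in choroid plexus cells and 117 and 110 CPM in oligodendrocytes. Hspb6 was highest in choroid plexus cells, at 31.2 and 30.4 CPM from 90 and 13 UMIs.

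**Figure D2:**
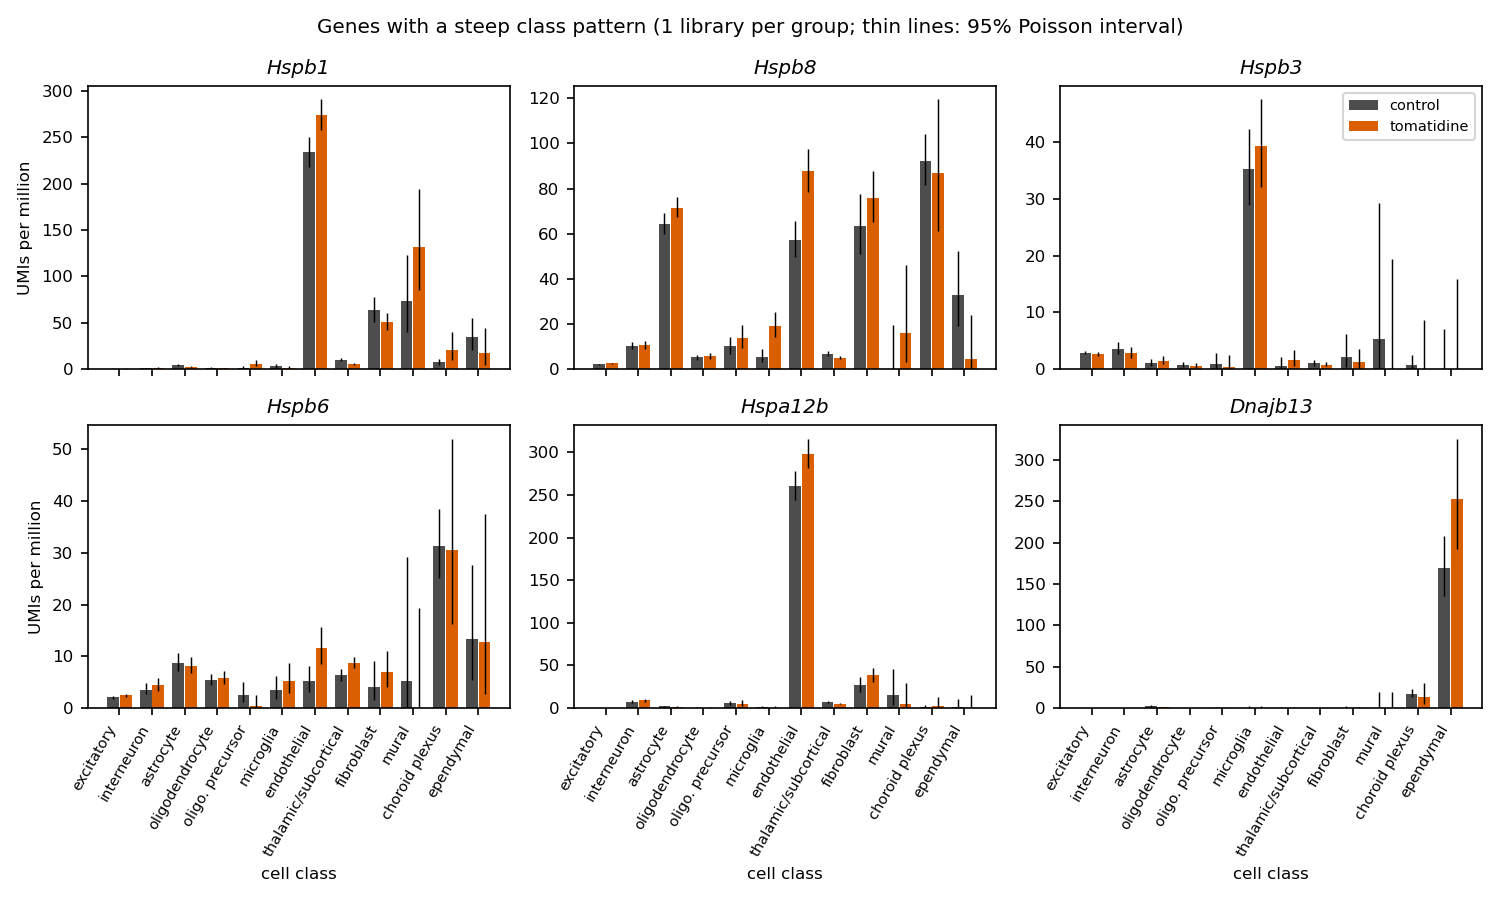
Levels of 6 members with a steep class pattern in 12 cell classes, as bars in CPM for the control (grey) and tomatidine (orange) library, with thin lines for the 95% Poisson interval. Hspb1 and Hspa12b peak in endothelial cells, Hspb3 in microglia, Hspb6 in choroid plexus and Dnajb13 in ependymal cells. Hspb8 is shared by several classes, among them choroid plexus, endothelial cells, astrocytes and fibroblasts.

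Dnajb2, a J-domain gene known for neuronal isoforms that deliver ubiquitinated clients for degradation, was highest in oligodendrocytes at 566 and 518 CPM, against 62.3 and 67.8 CPM in excitatory neurons. Hspa2, a HSP70 gene best known from the testis, was the only member highest in astrocytes of the 7 main classes (143 and 130 CPM). Endothelial cells were close in the control library (140 and 105 CPM, control interval 128 to 153). Excitatory neurons had 132 and 115 CPM and oligodendrocytes 53.1 and 60.5 CPM. Within the excitatory neurons Hspa2 ranged from 30.6 and 37.1 CPM in subicular or deep-layer neurons to 209 and 188 CPM in dentate gyrus granule neurons. Hspb8, the partner of BAG3 in chaperone-assisted autophagy, stood at 64.2 and 71.5 CPM in astrocytes and at 2.16 and 2.48 CPM in excitatory neurons.

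To ask whether members differed with tomatidine, the log2 ratio of the tomatidine over the control CPM was taken in each class for members with at least 100 UMIs there, with an exact 95% interval that covers counting error only. A member was called higher or lower at a ratio of at least 0.5 in size, a 1.41-fold difference. Over the 7 main classes 400 pairs of a member and a class were compared, and 10 were called, 6 higher and 4 lower. In excitatory neurons 0 of 62 members were called in either direction, where 3.76% of 13195 genes were called higher and 0.402% lower. In astrocytes 0 of 59 were called (1.39% of 11667 genes higher, 1.89% lower), and in oligodendrocytes 0 of 59 (4.1% of 11248 genes higher, 0.649% lower). In interneurons 1 of 61 was called higher and 0 lower (2.54% of 11239 genes higher, 0.738% lower). Oligodendrocyte precursors had 1 of 52 called higher and 3 lower (2.65% of 9461 genes higher, 3.24% lower), microglia 2 of 50 higher and 0 lower (2.82% of 9350 genes higher, 1.27% lower) and endothelial cells 2 of 57 higher and 1 lower (2.87% of 10267 genes higher, 2.87% lower). With counts this small the members' shares were near those of all genes. The intervals of 9 of the 10 called ratios did not include 0, and the exception was Dnajb3 in interneurons. With a second cell filter 5 of the 10 could still be compared and 1 was still called.

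**Figure D3:**
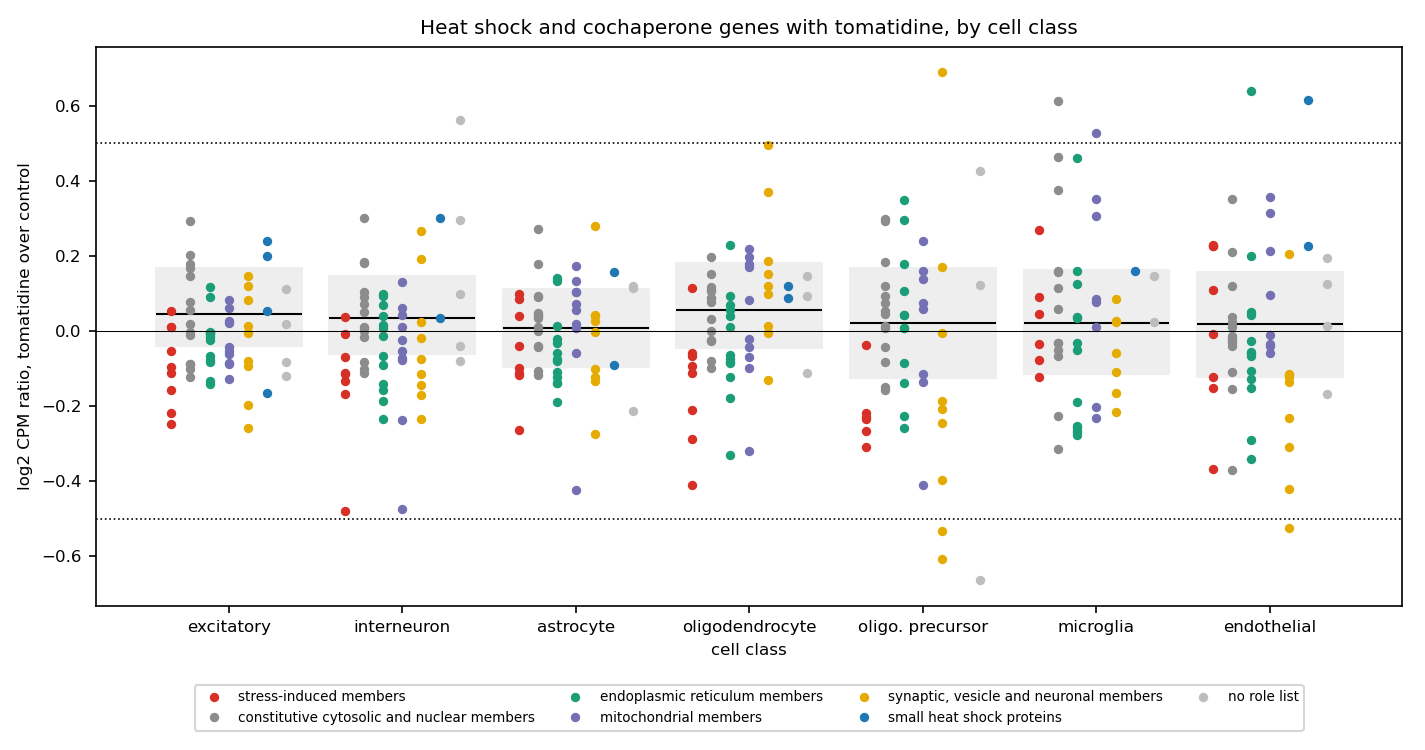
Log2 ratio of tomatidine over control for each member compared, by main cell class, coloured by role, with the median (black line) and quartiles (grey band) of all genes and dotted lines at the ratio used for a call. Most members lie inside the dotted lines, and the stress-induced members (red) lie mostly below 0 in neurons, oligodendrocytes and oligodendrocyte precursors.

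The stress-induced members lay slightly lower with tomatidine in neurons and in the oligodendrocyte lineage. In excitatory neurons 6 of 9 had ratios below 0, with a median of −0.10, against −0.0096 for all 62 members and 0.05 for all genes. In interneurons 7 of 8 lay below 0 (median −0.11, all genes 0.04), in oligodendrocytes 7 of 8 (median −0.10, all genes 0.06) and in oligodendrocyte precursors 6 of 6 (median −0.23, all genes 0.02). In astrocytes 5 of 8 lay below 0 (median −0.07, all genes 0.0081). In microglia it was 3 of 6 (median 0.0049, all genes 0.02) and in endothelial cells 4 of 8 (median 0.05, all genes 0.02). Each of these medians is below the 1.41-fold limit in size. Members of the list are induced together and are no independent measurements, and over all kept cells their median was −0.04. Markers of other cells also differed in these classes. In excitatory neurons 18 of 19 granule neuron markers lay below 0 (3419 and 3065 CPM summed), and 21 of 22 astrocyte (1185 and 1415 CPM), 21 of 21 microglia (175 and 211 CPM) and 22 of 24 interneuron markers (492 and 594 CPM) above it. In interneurons 19 of 21 oligodendrocyte markers lay below 0 (3383 and 2811 CPM), in oligodendrocytes 21 of 22 astrocyte markers above it (1601 and 1826 CPM), and in oligodendrocyte precursors 22 of 22 oligodendrocyte markers below it (21012 and 12521 CPM). None of these markers was without UMIs in either library, and their part in the lower stress-induced levels was not tested.

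Hspa8, the constitutive HSP70 HSC70 that also rises with stress, had 704 and 652 CPM in excitatory neurons, a ratio of −0.11 (−0.13 to −0.10). Its levels in interneurons were 919 and 849 CPM (−0.11, −0.15 to −0.08) and in oligodendrocytes 682 and 639 CPM (−0.09, −0.13 to −0.06). In astrocytes the levels were 426 and 438 CPM, and the interval included 0 (0.04, −0.01 to 0.09). Dnaja1, a HSP70 cochaperone, had 218 and 196 CPM in excitatory neurons (−0.16, −0.18 to −0.13) and 287 and 255 CPM in interneurons (−0.17, −0.24 to −0.10). Dnajb1, the HSP40 cochaperone of the inducible HSP70, had 58.3 and 54.6 CPM in excitatory neurons (−0.10, −0.15 to −0.04) and 46.9 and 38.4 CPM in oligodendrocytes (−0.29, −0.44 to −0.14). Both J-domain genes lay below 0 in all 7 main classes. Hsp90aa1, the inducible cytosolic HSP90, had 437 and 422 CPM in excitatory neurons (−0.05, −0.07 to −0.03) and 511 and 473 CPM in oligodendrocytes (−0.11, −0.16 to −0.07). Hsph1, the HSP110 that recharges HSP70 with ATP, had nearly equal levels of 233 and 235 CPM in excitatory neurons (0.01, −0.01 to 0.04), as did Dnajb4 with 78.3 and 78.8 CPM (0.01, −0.04 to 0.05). Hspb1 had a ratio of 0.23 in endothelial cells (0.09 to 0.36), where Hspa1a and Hsph1 also had 0.23 and Dnajb4 0.11, with intervals that included 0. Below 0 there were Dnajb1 (−0.37, −0.67 to −0.07), Hsp90aa1 (−0.15, −0.30 to −0.005) and Hspa8 (−0.12, −0.22 to −0.02). Dnaja1 was nearly level (−0.01, −0.19 to 0.17). Hspb1 had nearly equal levels in excitatory neurons (0.05, −0.51 to 0.61), and had too few UMIs in the other 5 main classes to be compared.

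**Figure D4:**
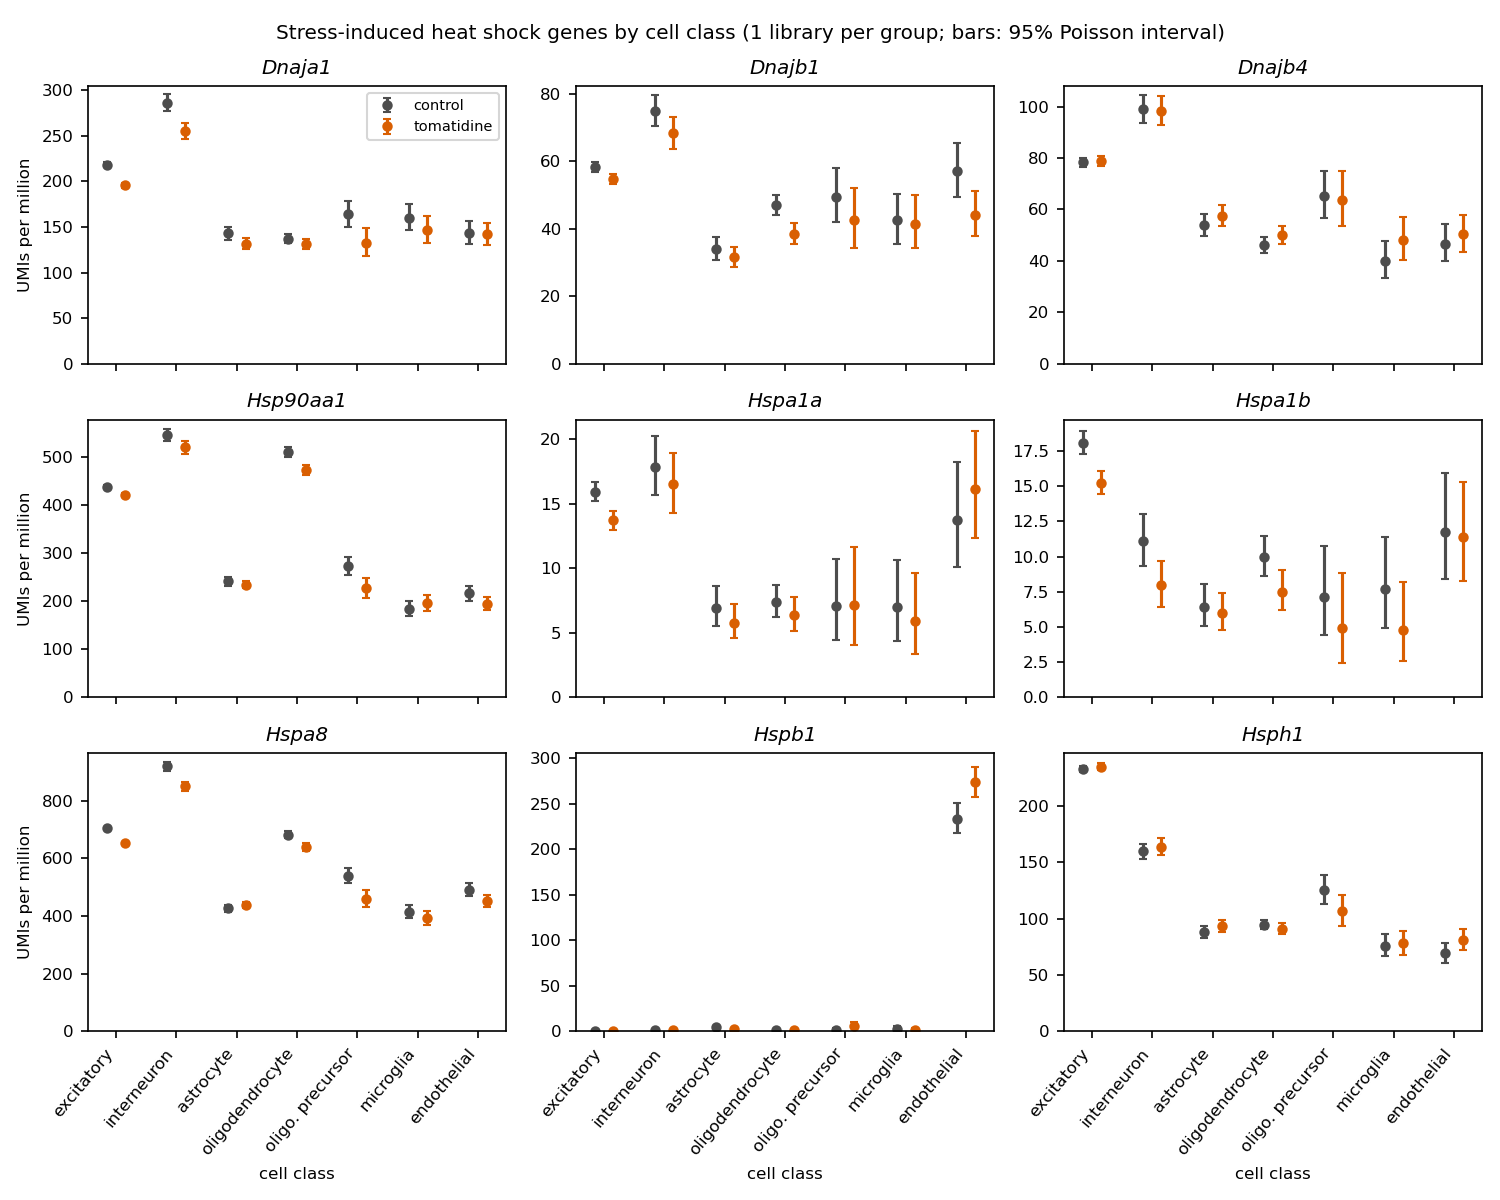
Levels of the 9 stress-induced members in the 7 main classes, in CPM with 95% Poisson intervals, for the control (grey) and tomatidine (orange) library. Dnaja1, Dnajb1, Hspa8 and Hsp90aa1 lie lower in the tomatidine library in both neuron classes, Dnajb4 and Hsph1 hardly differ there, and Hspb1 is seen almost only in endothelial cells.

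Hspa1a and Hspa1b were low, with higher summed levels in excitatory neurons and interneurons than in astrocytes and oligodendrocytes. This did not hold for all neurons, as thalamic or other subcortical neurons had a sum of 14.5 and 15.5 CPM. Fibroblasts, at 43.8 and 37.5 CPM, stood above both excitatory neurons and interneurons. The coding sequences of the pair differ by 10 bases (99.5% identical), so how the probes divided UMIs between them is uncertain, and the sum of the pair is given as well. Hspa1a had 15.9 and 13.7 CPM in excitatory neurons (−0.22, −0.32 to −0.11) and Hspa1b 18.1 and 15.2 CPM (−0.25, −0.35 to −0.15). Summed, they had 34.0 and 28.9 CPM in excitatory neurons (−0.23, −0.30 to −0.16) and 28.9 and 24.4 CPM in interneurons (−0.24, −0.47 to −0.02). In oligodendrocytes the sum was 17.4 and 13.9 CPM (−0.32, −0.58 to −0.07), while in astrocytes (13.4 and 11.8 CPM) and endothelial cells (25.5 and 27.5 CPM) the intervals included 0. Immediate early genes also lay lower in excitatory neurons, with a median ratio of −0.14 over 17 genes. In interneurons 9 of 15 lay above 0 (median 0.06). Their part in these results was not tested.

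Among excitatory neurons, the summed pair was highest in CA3 pyramidal neurons (68.2 and 60.5 CPM) and CA1 pyramidal neurons (54.9 and 41.4 CPM). Dentate gyrus granule neurons had 26.7 and 21.1 CPM and subicular or deep-layer neurons 18.9 and 18.8 CPM. The ratio was −0.41 in CA1 (−0.56 to −0.26), −0.34 in granule neurons (−0.47 to −0.21) and −0.17 in CA3 (−0.36 to 0.02), and −0.0066 in subicular or deep-layer neurons (−0.22 to 0.21). In the other excitatory neurons the pair had 507 and 685 UMIs in all, a ratio of 0.02 (−0.15 to 0.18). Hspa1a by itself passed the limit for a call in CA1, at 23.3 and 16.2 CPM from 449 and 216 UMIs (−0.53, −0.77 to −0.29). In CA1 the median depth was 24165 UMIs per control cell and 17351.5 per tomatidine cell, and the part of this gap was not tested. Hspa1b by itself had 45.6 and 35.8 CPM in CA3, against 6.33 and 7.37 CPM in subicular or deep-layer neurons, so that CA3 was the highest and the subicular or deep-layer class the lowest of the 5 subclasses in both libraries.

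Over the 5 excitatory subclasses, 18 of 56 members (32.1%) lay below 0 in every subclass, beside 12.7% of 9761 genes, and 6 (10.7%) lay above 0 in every subclass, beside 24.1%. Subclasses of 1 library share its making, and a sign in all 5 can rest on very small ratios. The 18 held the stress-induced genes Dnaja1, Dnajb1, Hsp90aa1 and Hspa8, the constitutive HSP90 gene Hsp90ab1, Hspa4 of the HSP110 group, Hspa5, Hspd1 and the synaptic genes Dnajc5 and Dnajc6. For Dnaja1 the ratios ran from −0.22 in subicular or deep-layer neurons to −0.14 in the other excitatory neurons, and for Hspa5 from −0.24 in granule neurons to −0.00 in CA1. Hsp90ab1 had 518 and 449 CPM in CA1 (−0.21, −0.25 to −0.16) and 548 and 532 CPM in subicular or deep-layer neurons (−0.04, −0.08 to −0.00). The 6 on the other side were Dnajb5, Dnajc17, Dnajc21, Hsf1, Hsp90b1 and Hspa4l. Hsf1 had 46.7 and 62.0 CPM in CA1 (0.41, 0.27 to 0.55) and 66.6 and 74.2 CPM in granule neurons (0.16, 0.08 to 0.23). The activity of the HSF1 protein was not measured, and a link between the Hsf1 level and the stress-induced genes was not tested.

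**Figure D5:**
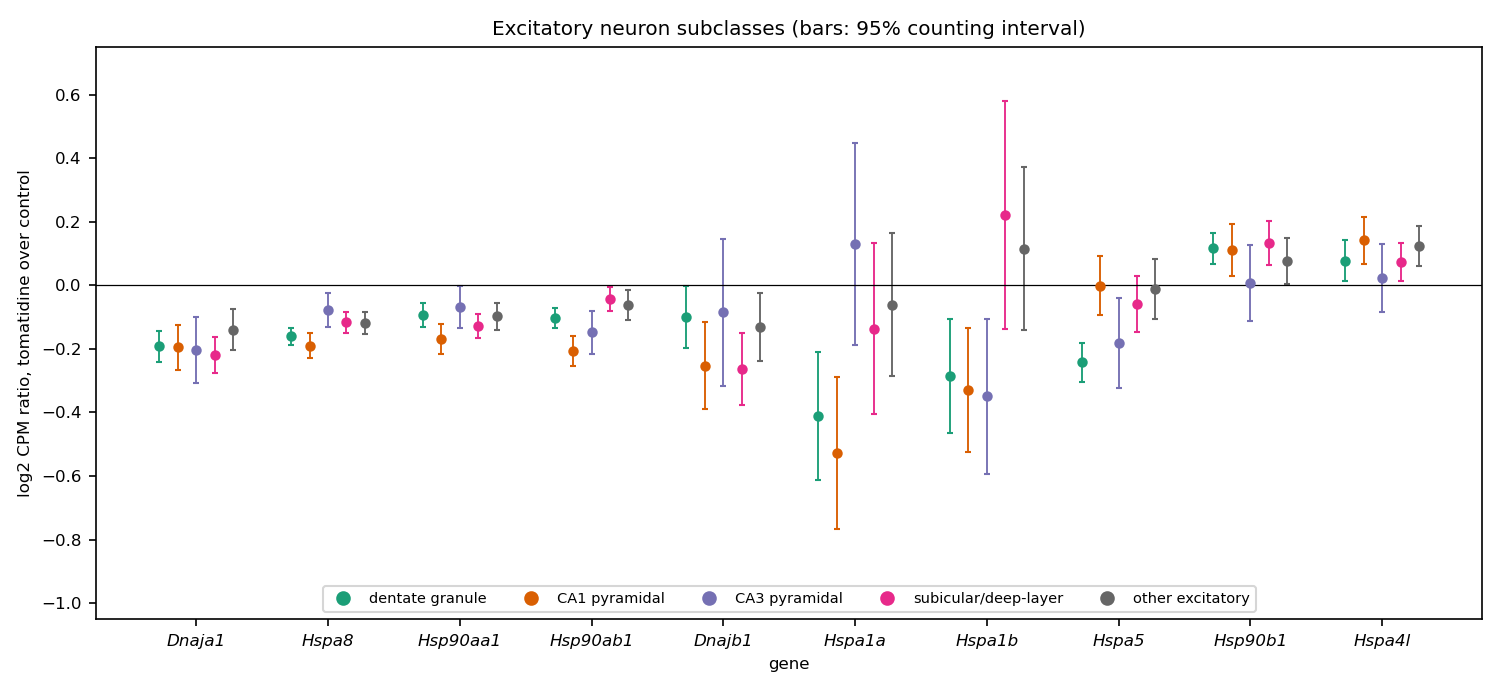
Log2 ratio of tomatidine over control for 10 members in 5 excitatory neuron subclasses, with 95% counting intervals. Dnaja1, Hspa8, Hsp90aa1, Hsp90ab1, Dnajb1 and Hspa5 lie at or below 0 in each subclass, Hsp90b1 and Hspa4l above it, and Hspa1a and Hspa1b differ between subclasses.

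In the endoplasmic reticulum list, 11 of 13 members had ratios below 0 in excitatory neurons (median −0.02), 10 of 13 in astrocytes (median −0.07), 9 of 13 in endothelial cells (median −0.06), 8 of 13 in microglia (median −0.05) and 7 of 13 in interneurons (median −0.01) and oligodendrocytes (median −0.06). In oligodendrocyte precursors 8 of 12 lay above 0 (median 0.03). Of all genes, 36.3% lay below 0 in excitatory neurons, 35.5% in oligodendrocytes, 40.1% in interneurons and from 45.6% to 48.0% in the other 4 main classes. Hspa5 had 115 and 105 CPM in excitatory neurons (−0.13, −0.17 to −0.09), 100 and 88.0 CPM in astrocytes (−0.19, −0.30 to −0.07) and 140 and 111 CPM in oligodendrocytes (−0.33, −0.42 to −0.24). It lay below 0 in all 7 main classes, with its smallest difference in endothelial cells, at 115 and 111 CPM (−0.06, −0.26 to 0.14). Its cochaperone gene Dnajc3 and Dnajb12, a J-domain gene of the membrane of the endoplasmic reticulum, also lay below 0 in all 7. Dnajb12 had 80.7 and 73.1 CPM in excitatory neurons (−0.14, −0.19 to −0.10) and 133 and 118 CPM in oligodendrocytes (−0.18, −0.26 to −0.09). Hsp90b1 went the other way, with 163 and 177 CPM in excitatory neurons (0.12, 0.09 to 0.15) and 135 and 149 CPM in astrocytes (0.14, 0.05 to 0.24). The promoters of Hspa5, Dnajc3 and Hsp90b1 share the stress element letters, and the part of these letters in the ratios was not tested. In astrocytes 19 of 22 oligodendrocyte markers lay below 0 (10089 and 7372 CPM), and choroid plexus markers summed to 1500 and 376 CPM. Choroid plexus markers also summed lower in excitatory neurons (360 and 173 CPM), microglia (1048 and 254 CPM) and the remaining main classes. Choroid plexus cells had 371 and 368 CPM of Hspa5 and 352 and 340 CPM of Hsp90b1, and the part of these markers was not tested.

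Of 48 members compared in all 7 main classes, 5 (10.4%) lay below 0 in each, beside 3.17% of 8305 genes, and 5 (10.4%) above, beside 7.08%. Those below were Dnaja1, Dnajb1, Dnajb12, Dnajc3 and Hspa5. Those above were Hsp90b1, Hspa9, Dnajc4, Dnaja2 and Dnajc7, and few of these stayed above 0 in every class under other settings: only Hspa9 with trimmed-mean (TMM) scaling, only Dnaja2 with a second cell filter or as a mean over cells, and Dnaja2 and Hspa9 without integration. Dnaja1 was lost from the lower ones as a mean over cells, and Dnajb1 in that setting, with the second filter and at a finer clustering. Each of the 10 had an interval that included 0 in some classes, from 2 classes for Hspa5 and Hspa9 to 5 for Dnajc3 and Dnajc4.

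Mitochondrial members were nearly level between the groups, with medians from −0.05 in excitatory neurons to 0.08 in microglia. Hspa9, the HSP70 of the mitochondrial matrix (mortalin), was called in microglia, at 43.5 and 62.6 CPM (0.53, 0.19 to 0.86), and had 51.3 and 59.7 CPM in oligodendrocytes (0.22, 0.09 to 0.35). Its 65.1 and 67.9 CPM in excitatory neurons gave a ratio of 0.06 (0.01 to 0.11). Hspd1 and Hspe1, which share the interval shown above, did not lie on the same side of 0 in excitatory neurons: Hspd1 had 84.0 and 80.5 CPM (−0.06, −0.11 to −0.02) and Hspe1 58.6 and 59.6 CPM (0.03, −0.03 to 0.08).

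In the list of synaptic, vesicle and neuronal members, 5 of 9 lay below 0 in excitatory neurons (median −0.0048), where most of all genes lay above 0. Dnajc6, the gene of auxilin, had 279 and 278 CPM there (−0.00, −0.03 to 0.02). Dnaja4 had 47.0 and 39.2 CPM in excitatory neurons (−0.26, −0.32 to −0.20), the widest ratio below 0 of the 62 members there, and Hspa2 132 and 115 CPM (−0.20, −0.23 to −0.16). Dnajc12, a cochaperone of the aromatic amino acid hydroxylases, had 16.5 and 18.2 CPM in excitatory neurons (0.15, 0.05 to 0.24) and 12.2 and 17.2 CPM in oligodendrocytes (0.49, 0.24 to 0.75). In oligodendrocytes 7 of 9 of the list lay above 0 (median 0.12), as did most of all genes there, so this count is not particular to the list.

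Only 1 to 4 of the 7 small heat shock genes had enough UMIs in the main classes other than oligodendrocyte precursors, where 0 did. Hspb8 was called in endothelial cells, at 57.3 and 87.7 CPM (0.62, 0.36 to 0.88), and had 64.2 and 71.5 CPM in astrocytes (0.16, 0.02 to 0.29). Its share of endothelial cells with at least 1 UMI was 33.8% (28.4 to 39.4) and 36.9% (32.2 to 41.7), against 4.01% of control excitatory neurons, and 8.75% and 12.5% against 0.452% when thinned in the same way. Hspb6, known from muscle and vessels, had 18 and 45 UMIs in endothelial cells, too few to be compared.

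The constitutive cytosolic and nuclear members lay above 0 more often than below in most main classes. It was 8 of 14 in excitatory neurons (median 0.04) and 10 of 14 in interneurons, astrocytes, oligodendrocytes and oligodendrocyte precursors. All genes also lay above 0 more often than below in every main class, by the shares given with the endoplasmic reticulum list. The counts are therefore not particular to these members. Hspa4l, a HSP110 gene, had 160 and 181 CPM in excitatory neurons (0.18, 0.15 to 0.21) and 126 and 152 CPM in astrocytes (0.27, 0.17 to 0.37). Hsp90ab1 lay below 0 in excitatory neurons, at 466 and 435 CPM (−0.10, −0.12 to −0.08). Dnajc21, a J-domain gene of ribosome assembly, was called in microglia from 78 and 103 UMIs, at 24.9 and 38.1 CPM (0.61, 0.18 to 1.06). Hsf1 had 56.9 and 64.0 CPM in excitatory neurons (0.17, 0.12 to 0.22) and 69.3 and 59.3 CPM in microglia (−0.23, −0.53 to 0.07). Dnajb3, in no role list, was called in interneurons from only 43 and 58 UMIs (0.56, −0.03 to 1.17).

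The largest differences of members were seen in the classes with the fewest UMIs. In oligodendrocyte precursors Dnajc12 was higher, at 15.8 and 25.5 CPM from 49 and 57 UMIs (0.69, 0.11 to 1.27). Called lower were Dnajb2, at 150 and 104 CPM (−0.53, −0.77 to −0.30, but 0.0283 at the finer clustering), Hspa2, at 61.3 and 40.3 CPM (−0.61, −0.99 to −0.24), and Hspb11, a component of the transport system of cilia, at 25.5 and 16.1 CPM (−0.66, −1.27 to −0.08). In the same cells all 22 oligodendrocyte markers lay below 0, with a summed level of 21012 and 12521 CPM and 0 markers without UMIs, while 17 of 21 precursor markers lay above 0 (16825 and 18331 CPM). Dnajb2 was highest in oligodendrocytes, as given above, and the part of the oligodendrocyte markers in these 3 results was not tested. Immediate early genes lay below 0 for 10 of 10 compared there (median −0.36).

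In endothelial cells Dnajc25, a J-domain gene of the endoplasmic reticulum, was called higher from 39 and 67 UMIs, at 11.2 and 17.4 CPM (0.64, 0.05 to 1.25), beside Hspb8. Dnaja4 was called lower there, at 24.6 and 17.1 CPM from 86 and 66 UMIs (−0.52, −1.01 to −0.04), and Hspa2 had 140 and 105 CPM (−0.42, −0.61 to −0.23). All 22 astrocyte markers lay below 0 in these cells, with a summed level of 9173 and 6588 CPM, and 18 of 20 mural markers lay above 0 (8000 and 10227 CPM). Choroid plexus markers summed to 2837 and 347 CPM there, with 0 of 21 at 0 UMIs in the control and 4 in the tomatidine library. Granule neuron markers lay below 0 for 17 of 18 (1415 and 1017 CPM), and granule neurons had 209 and 188 CPM of Hspa2. The part of these other cells' RNA in the endothelial results was not tested. In microglia, where Hspa9 and Dnajc21 were called, 19 of 22 astrocyte markers lay above 0 (3977 and 4939 CPM) and 15 of 17 oligodendrocyte markers below 0 (6281 and 5550 CPM), and their part was not tested.

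Over all kept cells 1 of 67 members was called higher, Dnajc22, with 45 and 93 UMIs (1.09, 0.56 to 1.64), where 3.96% of 14631 genes were. Most of its UMIs, 28 and 67, came from thalamic or other subcortical neurons, whose cell number differed between the libraries. The only member called lower over all cells was Dnajb13, at 0.992 and 0.588 CPM (−0.75, −1.09 to −0.42), where 2.59% of genes were, from 205 and 118 UMIs, of which 88 and 59 lay in ependymal cells and 51 and 6 in choroid plexus cells. Choroid plexus cells numbered 356 and 33 and ependymal cells 35 and 14, and the part of these numbers was not tested.

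Of 34 other chaperone and cochaperone genes outside the symbols used, 23 lay below 0 in excitatory neurons (median −0.07) and 18 of 34 in astrocytes (median −0.02). In both classes most of all genes lay above 0. Of the other chaperone and cochaperone genes compared, 0 were called in excitatory neurons, interneurons, astrocytes, microglia or endothelial cells. Named after their values were seen, Hsf4, a heat shock factor gene known from the lens, was called higher in oligodendrocytes from 78 and 107 UMIs, at 3.97 and 7.12 CPM (0.84, 0.41 to 1.28). In oligodendrocyte precursors Bag3, the HSP70 cochaperone that works with HSPB8, was called lower at 38.7 and 22.4 CPM (−0.79, −1.30 to −0.31), as was Cryab, a small heat shock gene abundant in oligodendrocytes, at 632 and 445 CPM (−0.51, −0.62 to −0.40). In oligodendrocytes themselves Cryab had 2286 and 2134 CPM (−0.10, −0.12 to −0.08) and Bag3 39.6 and 38.7 CPM (−0.03, −0.19 to 0.12). The cold-inducible genes Cirbp and Rbm3, which fall on warming, had a median ratio of −0.02 over all cells, and 4 genes of the Y chromosome ranged from −0.16 to 0.14.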

How the data were processed

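Gene expression was measured by probe-based single-cell RNA sequencing of 2 pooled hippocampal libraries, control and tomatidine. The authors deposited raw UMI counts per gene and cell. The submitters' processing notes name Cell Ranger 8.0.0 and mm10, and the matrix headers name cellranger 7.1.0. Each library is 1 pool of 4 mice, so no test between groups could be run.

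Kept were cells of 500 or more UMIs and over 250 genes, with a log10 gene to log10 UMI ratio over 0.8 and under 20% mitochondrial UMIs, as in the study. Scrublet (scanpy 1.11.5) called 0 and 2 doublets by its own threshold and so did not work. In its place the top 2% of cells by doublet score (308 and 296) were removed per library. The kept cells were 95.0% and 95.5% of those deposited and held 74.0% and 77.4% of the UMIs. Seurat 5.3.0 (R 4.3.3) integrated both libraries by reciprocal principal components and gave 38 clusters, with 131 genes (the members and lists examined) left out of clustering. A cluster was named if its top 10 genes by fold held at least 2 markers of a type and at least 3 markers, and 33% of that type's list, were raised 2-fold and seen in 10% of its cells. With the clusters already in view when the rule was written, 10 of them stayed unnamed.

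UMIs were summed per class and library and divided by the class total (CPM). Poisson intervals for CPM, Clopper-Pearson intervals for shares and exact conditional binomial intervals for log2 ratios are at 95% and cover counting error only. Features with at least 100 UMIs over both libraries in a class were compared. The procedure was tested on simulated counts. Named by rule were the stress-induced members, members called in a main class and members whose highest class had at least 2 times the CPM of the next in both libraries from at least 100 UMIs; genes outside the members were named by rule only where called in the same class as a stress-induced member, which none was. All other genes were named after their values were seen. The members and lists were chosen with earlier results of these data known. Proteins were not analysed here. Software was Python 3.11.15 with scipy 1.17.1, numpy 2.4.6, matplotlib 3.10.9 and pandas 2.3.3, and edgeR 4.0.16 served only for TMM factors.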

Additional observations from a re-analysis of the deposited data

How the results depend on the processing

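No paired analysis was possible because each group is 1 library, and for the same reason no library could be left out. Alternatives were a second cell filter of the study added (200 to 6000 genes and under 10% mitochondrial UMIs, called both filters), doublets kept, no integration, clustering at resolution 0.3 and 1.5, members used in clustering, TMM scaling, the mean over cells, a minimum of 20 UMIs, a log2 limit of 1, calls whose interval excludes 0, cells thinned to 1500 UMIs for shares, and all deposited cells, the last chosen after the data were seen. The stress-induced median in excitatory neurons (−0.10) was −0.0415 as a mean over cells and in oligodendrocytes (−0.10) −0.16 with TMM, and it stayed below 0 in excitatory neurons (−0.15 to −0.04), interneurons (−0.15 to −0.09), oligodendrocytes (−0.16 to −0.08) and precursors (−0.27 to −0.16). In astrocytes (−0.13 to 0.06), microglia (−0.06 to 0.06) and endothelial cells (−0.06 to 0.05) its sign depended on the setting. The 6 higher calls became 10 as a mean over cells, 14 at 20 UMIs and 0 at a log2 limit of 1. The 4 lower calls became 1 with both filters, 2 at resolution 1.5, 8 as a mean over cells, 9 at 20 UMIs and 0 at a log2 limit of 1. Of the 10 calls, 1 was kept with both filters, where 5 could be compared, 6 at resolution 1.5 and 6 as a mean over cells. Dnajb3 in interneurons reversed to −1.07 with both filters and Dnajb2 in precursors to 0.0283 at resolution 1.5. Of the 7 members with 2 times the level of the next class 4 remained at resolution 0.3 (Hspa12b, Hspb1, Hspb3 and Hspb6), where no mural or ependymal class was found. Of the 5 members above 0 in all 7 main classes, 1 stayed with TMM (Hspa9), 1 with both filters and as a mean over cells (Dnaja2), and 2 without integration. Hspa5, Dnajc3 and Dnajb12 lay below 0 in all 7 main classes in each alternative tried for them, Dnaja1 in all but the mean over cells, and Dnajb1 not with both filters, at resolution 1.5 or as a mean over cells. Other causes were not tested. Depth limits classes of few cells, where calls rest on few UMIs.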
